A study of Mus musculus with 3 samples.

Results

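Receptor tyrosine kinases are the transmembrane proteins through which most peptide growth factors reach the inside of a cell. The 50 receptor genes described here were chosen by symbol, by matching a fixed list of names against the gene names of the deposited table. All 50 were found, among 55573 genes listed. The data are 3 UMI-RNAseq libraries from NIH3T3 cells without treatment, an established line of mouse embryonic fibroblasts that was kept in DMEM with fetal bovine serum. The 3 libraries share 1 condition, for which the labels name no treatment, allele or transgene, and no source states that they came from separate cultures, so the SD may be technical. Values are FPKM, the fragments counted for a gene, scaled to 1 kilobase of its length and to a library of 1000000 fragments. Whole fragments were recovered from the FPKM of all 42 receptors above 0, with totals of 14423209, 13959723 and 14307241 fragments in libraries 1, 2 and 3. In bulk RNA, fewer cells that express a gene and less RNA per cell cannot be told apart.

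A receptor tyrosine kinase binds its ligand outside the cell, pairs with another receptor and phosphorylates tyrosines on its own tail. Adaptor proteins dock there and pass the signal to Ras, PI3-kinase or phospholipase C. Fibroblasts are known for their responses to PDGF, FGF, insulin-like growth factor and collagen, and serum supplies several of these ligands from outside. The RNA measured here shows which receptors were transcribed, not how much protein reached the cell surface.

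The labels call the cells NIH3T3 but mention retina in the extraction text, so markers of both were read first. All 8 fibroblast markers had at least 1 FPKM in every library, from 2.97 ± 0.208 for S100a4 to 4377 ± 86.1 for Fn1, which encodes fibronectin (mean ± SD, n = 3 here and throughout). None of the 8 retina and neuron markers did, and their summed FPKM was 0.659, 1.75 and 0.762 in libraries 1, 2 and 3. Their highest was Rcvrn at 0.363 ± 0.225 and their lowest Syt1 at 0.0159 ± 0.0276. The same limit was passed by 0 of 5 epithelial markers, with Cdh1 highest at 0.442 ± 0.0766, and by 1 of 6 macrophage and blood markers, Cd68 at 2.12 ± 0.544. It was passed by 2 of 6 endothelial markers, Vwf at 1.64 ± 0.190 and Cdh5 at 1.35 ± 0.290, and by 1 of 4 glial markers, Mbp at 1.75 ± 0.281. Emcn, Adgre1, Itgam, Cd3e, Epcam, Krt18 and Krt5 were listed at 0 in every library, and the lowest glial marker was Sox10 at 0.0126 ± 0.0218. The endothelial list includes the receptors Tie1 and Tek and the blood list includes Csf1r.

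The active site of the kinase domain includes a run of aspartate, phenylalanine and glycine, called DFG, whose aspartate holds the metal ion that ATP needs for the reaction. The coding sequence around them is shown for the 5 receptors with the highest FPKM, and then for the 5 receptors in which the DFG codons or the codons for histidine, arginine and aspartate (HRD) of the preceding catalytic loop are replaced. Capitals mark the 3 codons at the DFG position, and each run lies within 1 coding exon. The sequences were read 5′ to 3′ on the coding strand from GENCODE M21 transcripts on GRCm38.
Axl, chr7:25761516-25761542, minus strand: tgtgtggcaGACTTCGGGctctccaag
Fgfr1, chr8:25572395-25572421, plus strand: aagatcgcaGACTTTGGCttagctcga
Ddr2, chr1:169984456-169984482, minus strand: aagatagctGATTTTGGCatgagcaga
Pdgfra, chr5:75186008-75186034, plus strand: aagatctgtGATTTTGGCctggccaga
Epha2, chr4:141322347-141322373, plus strand: aaggtgtccGATTTTGGCctgtcgcgt
Ryk, chr9:102898713-102898739, plus strand: aagatcacaGACAATGCCctttccaga
Ror2, chr13:53111141-53111167, minus strand: aggatctcaGACTTGGGCctcttccgt
Ptk7, chr17:46567939-46567965, minus strand: aaggtgtccGCACTGGGCctgagcaag
Ror1, chr4:100441319-100441345, plus strand: aaaatttcaGATCTTGGGctttccaga
Ephb6, chr6:41618715-41618741, plus strand: aaggtggcaCGTCTCGGCcacagtcct

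Both motifs were read in 45 of the 50 receptors. Of the 5 that differ, Ryk, Ror2, Ptk7 and Ror1 belong to the receptors that bind Wnt proteins, and the aspartate codon of the DFG position is replaced only in Ptk7 and Ephb6 among the 50. Ryk kept the HRD codons and differs at the DFG position alone. The receptors with altered motifs were spread over the range of FPKM. Ryk ranked 6, Ror2 17, Ptk7 18 and Ror1 24 among the 50, whereas Ephb6 was listed at 0 in all 3 libraries. These windows describe the genes of the annotation and are not a measure of kinase activity.

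Of the 50 receptors, 24 had at least 1 FPKM in every library, which is 48%. The same limit was passed by 22.2% of all genes listed and by 48.5% of the 21980 protein-coding genes, so the receptors as a list were close to other protein-coding genes. At least 10 FPKM was reached by 17 receptors, or 34%, beside 34.8% of protein-coding genes. The rest fell away steeply. Only Erbb3, Mertk and Epha1 lay between, with 213, 86 and 54 fragments over all libraries, and the other 23 receptors had at most 9 fragments each, 8 of them none.

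**Figure D1:**
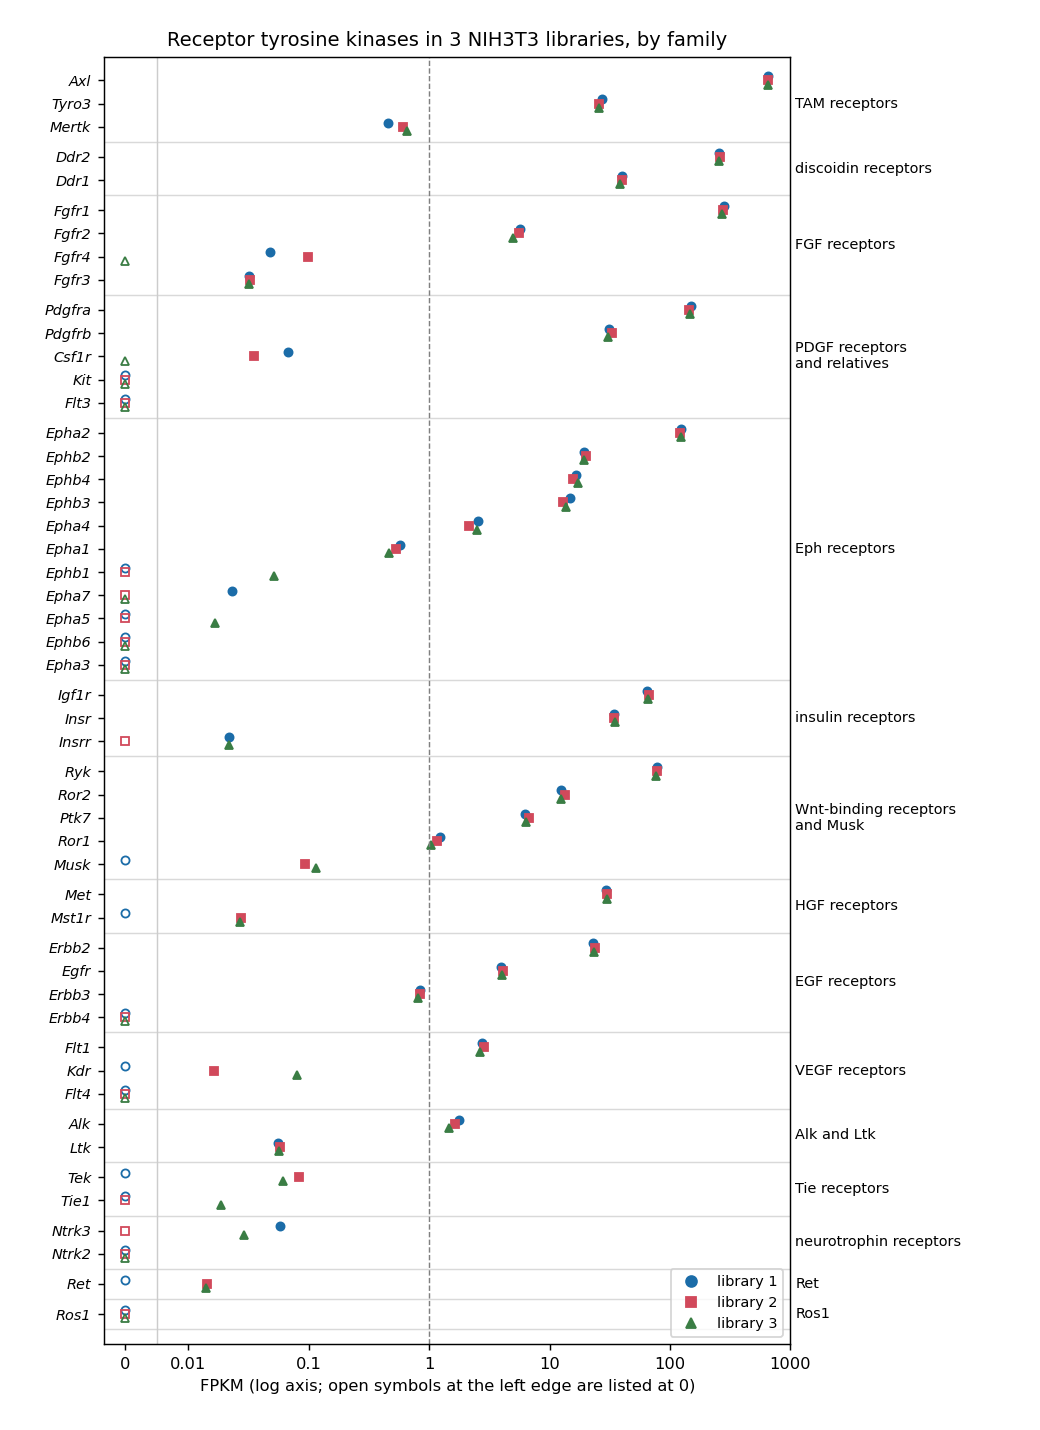
FPKM of the 50 receptor genes (log axis) in libraries 1, 2 and 3, grouped by receptor family and ordered by the summed FPKM of the family. The dashed line marks 1 FPKM and open symbols at the left edge are values listed at 0. Axl lies highest at 647 to 656 FPKM, 24 receptors lie right of the line in every library, and Axl, Ddr2, Fgfr1 and Pdgfra lead their families.

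The summed FPKM of the 50 receptors was 1867 ± 13.3, which is 0.271% of the summed FPKM of all genes. Axl alone made up 34.8 ± 0.120% of it, and Axl, Fgfr1, Ddr2, Pdgfra and Epha2 together made up 77.7 ± 0.167%. By family, the TAM receptors held 36.2 ± 0.151%, the discoidin receptors 15.8 ± 0.135% and the FGF receptors 14.98 ± 0.259%. The PDGF receptors and their relatives held 9.56 ± 0.0334% and the Eph receptors 9.41 ± 0.153%. The library ranges of these families overlapped, and in library 3 the Eph share, 9.575%, was above the PDGF share, 9.558%. Insulin receptors and the Wnt-binding receptors with Musk had similar shares, 5.36 ± 0.1002% and 5.27 ± 0.0616%, with library ranges that overlapped. Their order turned with gene length, to 3.84% and 7.16% with the longest isoform and to 7.45% and 4.41% with fragments not divided by length. HGF receptors held 1.59 ± 0.0334% and EGF receptors 1.51 ± 0.0342%. This order also turned, to 1.62% and 2.12% with the longest isoform and to 2.01% and 2.10% with fragments not divided by length. VEGF receptors held 0.150 ± 0.00450% and Alk with Ltk 0.0904 ± 0.00726%. The Tie and neurotrophin receptors, Ret and Ros1 held at most 0.00447% in any library. With fragments not divided by gene length, the TAM share fell to 25.8% and that of the discoidin receptors became 22.7%, so the leading position of the TAM receptors was kept but by a smaller margin.

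**Figure D2:**
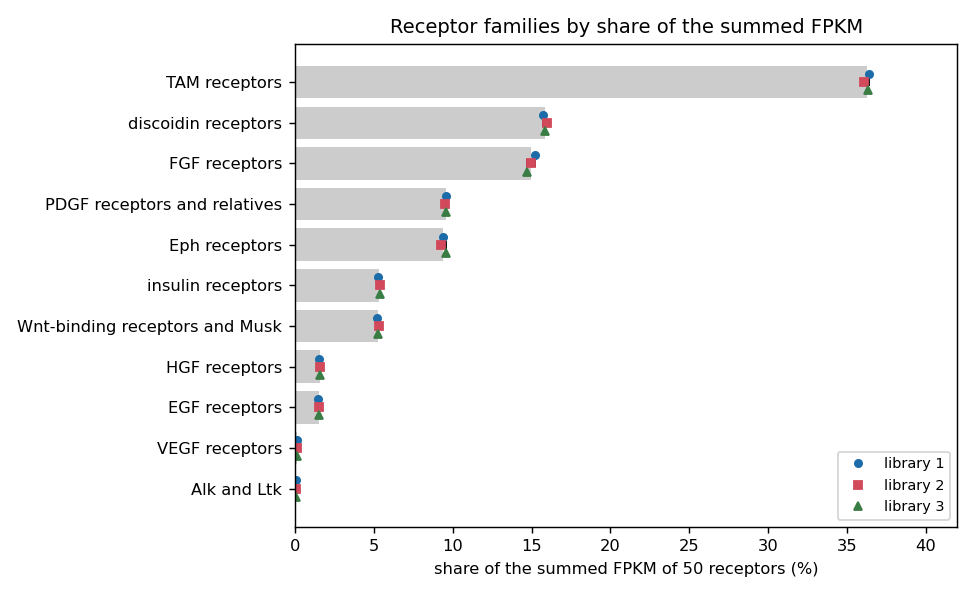
Share of the summed FPKM of 50 receptors (%) held by each family, as the mean over 3 libraries (bars, with SD) and per library (symbols). TAM receptors reach 36.1 to 36.4%, and the families of Tie, neurotrophin, Ret and Ros1 receptors, at most 0.00447% in any library, are not drawn.

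The TAM receptors Axl, Tyro3 and Mertk bind the vitamin K-dependent proteins Gas6 and protein S. Axl (ENSMUSG00000002602, chr7:25757273-25788705, minus strand) had 656, 647 and 647 FPKM in libraries 1, 2 and 3, a mean of 650.0 ± 5.50. This ranked 118 among the 12905 genes with a mean of at least 1 FPKM and rested on 47011 fragments. None of the 5169 distinct 75-nt words in its transcripts occurred in another gene. Tyro3 had 27.4, 25.6 and 25.8 FPKM, a mean of 26.3 ± 0.987, and Mertk 0.453, 0.610 and 0.655, a mean of 0.572 ± 0.106. Axl thus stood 24.8 ± 0.708 times above Tyro3 and 1166 ± 249 times above Mertk. The latter ratio, 10.17 on the log2 scale, rests on the 23 to 33 fragments per library of Mertk, and was 9.12 with the longest isoform, 9.11 with fragments not divided by length and 8.70 with a pseudocount of 1. Of the ligands, Pros1, which encodes protein S and binds Tyro3 and Mertk, had 44.7, 45.9 and 45.7 FPKM, a mean of 45.4 ± 0.669. Gas6, the ligand of Axl, was listed at 0 in every library, so the receptor with the highest FPKM had no fragment of its own ligand beside it.

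The discoidin receptors Ddr1 and Ddr2 are activated by collagen rather than by a soluble growth factor. Ddr2 (chr1:169972307-170110762, minus strand), the receptor for fibrillar collagens, had 255, 258 and 255 FPKM in libraries 1, 2 and 3, a mean of 256.3 ± 1.62. Its CV of 0.633% was the lowest of the 24 receptors at 1 FPKM or more. Ddr1 had 40.0, 39.8 and 38.4 FPKM, a mean of 39.4 ± 0.901, and Ddr2 stood 6.51 ± 0.137 times above it, 2.70 on the log2 scale and 3.36 with fragments not divided by length. RNA of their collagen ligands was present beside both receptors, and protein was not measured. Col1a2 had 1542 ± 11.7 FPKM, Col1a1 1218 ± 7.80, Col3a1 523 ± 5.09 and Col4a1 401.8 ± 4.22, whereas the cartilage collagen gene Col2a1 had 0.284 ± 0.123.

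Fgfr1 (chr8:25513654-25575718, plus strand), the FGF receptor typical of mesenchymal cells, had 281, 274 and 268 FPKM, a mean of 274.2 ± 6.45. Fgfr2 had 5.65, 5.63 and 4.98 FPKM, a mean of 5.42 ± 0.383, and Fgfr1 stood 50.7 ± 2.75 times above it. Fgfr3 and Fgfr4 had 3 fragments each over all libraries. Their levels of 0.0321 and 0.0484 FPKM had exact Poisson 95% upper limits of 0.0939 and 0.142. The line thus carried almost all of its FGF receptor RNA in 1 gene. Of 18 FGF genes, 3 reached 1 FPKM in every library. They were Fgf7 at 114.8 ± 1.14 FPKM, Fgf10 at 38.9 ± 2.20 and Fgf2 at 21.7 ± 0.629, and 8 FGF genes were listed at 0. Fgf7 and Fgf10 encode ligands known for acting on an epithelial isoform of Fgfr2, and Fgf2 encodes a ligand of Fgfr1. The values are per gene and do not separate isoforms. The coreceptors of the hormone-like FGFs, Kl and Klb, had at most 0.0586 FPKM in any library. Fgfr2 shares 3.04% of its exonic bases with Ctbp2 on the same strand, which had 61.8 FPKM, and the part of this overlap in its level was not tested.

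Pdgfra (chr5:75152292-75198215, plus strand) and Pdgfrb are the receptors through which platelet-derived growth factor drives fibroblast division. Pdgfra had 149, 145 and 147 FPKM in libraries 1, 2 and 3, a mean of 146.7 ± 2.06. Pdgfrb had 31.4, 32.8 and 30.7, a mean of 31.6 ± 1.06, and stood at 0.216 ± 0.00938 times Pdgfra. This ratio, -2.21 ± 0.06 on the log2 scale, depends on gene length. The deposited FPKM of Pdgfra used 2745 nt and its longest isoform has 6834 nt, while the 2 isoforms of Pdgfrb have nearly the same length. With the longest isoform the log2 ratio was -0.90, with the same direction. Among their ligands, Pdgfa had 33.5 ± 1.34 FPKM and Pdgfc 18.7 ± 0.227, Pdgfb had 1 fragment in library 1 and none in the others, and Pdgfd was listed at 0. Pdgfa shares 26.1% of its exonic bases with a gene on the opposite strand at 2.38 FPKM.

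The relatives of the PDGF receptors were at or near 0. Kit, the stem cell factor receptor, and Flt3 were listed at 0 in every library, where 3 fragments over all libraries would be 0.0296 and 0.0185 FPKM. Csf1r, the macrophage colony-stimulating factor receptor, had 2, 1 and 0 fragments. Kitl and Csf1, which encode ligands of Kit and Csf1r, were the highest of the 80 ligand genes after 4 collagen genes. Kitl had 394, 399 and 400.3 FPKM, a mean of 397.8 ± 3.37, and Csf1 had 403, 395 and 393, a mean of 397.0 ± 5.25. Il34, the other ligand of Csf1r, had 34.2 ± 2.41 and Flt3l 6.48 ± 0.432. So Kitl, Csf1, Il34 and Flt3l were transcribed without matching receptor RNA above the level of 3 fragments over all libraries.

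The Eph receptors bind ephrins, which are tethered to the membrane of neighbouring cells. Epha2 (chr4:141301240-141329384, plus strand) led the 11 members with 122, 122 and 124 FPKM, a mean of 122.8 ± 1.36. Ephb2 followed with 19.4, 19.9 and 19.5 FPKM, a mean of 19.6 ± 0.293. Ephb4 had 16.5, 15.8 and 17.2 FPKM, a mean of 16.5 ± 0.715, and Epha2 stood 7.46 ± 0.245 times above it, 2.90 on the log2 scale. This log2 ratio was 1.61 with the longest isoform and 1.46 with fragments not divided by length. Epha2 was thus the only A-type receptor of those read at 10 FPKM or more, beside 3 of the B type. The B-type order and count depend on gene length. With the longest isoform, Ephb4 was at 15.2, Ephb3 at 7.06 and Ephb2 at 6.98. Ephb4 then stood above Ephb2 and alone of the B type stayed above 10. Ephb3 had 14.7, 13.1 and 13.7 FPKM, a mean of 13.8 ± 0.859, and Epha4 had 2.53, 2.13 and 2.51, a mean of 2.39 ± 0.224. Epha1 had 0.576, 0.535 and 0.464 FPKM, a mean of 0.525 ± 0.0564. It shares 6.01% of its exonic bases with Zyx on the opposite strand, which had 343 FPKM, and without a stated strand setting the reads of such a pair cannot be told apart. Epha5, Epha7 and Ephb1 had at most 2 fragments, and Epha3 and Ephb6 were listed at 0. Of the 8 ephrin genes, 6 reached 1 FPKM in every library. Efnb2, a ligand of the B-type receptors, had 25.6 ± 0.612, Efna1 22.01 ± 0.475 and Efna5 18.1 ± 0.465. Efnb1 had 6.37 ± 0.936, Efna4 4.20 ± 0.221 and Efna3 2.94 ± 0.270, so both ligand classes were present.

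Igf1r and Insr, the receptors for insulin-like growth factors and insulin, were both transcribed. Igf1r had 64.2, 66.5 and 65.5 FPKM, a mean of 65.4 ± 1.18, and Insr had 34.5, 34.4 and 35.1, a mean of 34.6 ± 0.356. Igf1r stood 1.89 ± 0.0392 times above Insr, the closest to 1 of the 9 ratios computed. The third member, Insrr, had 2 fragments over all libraries. None of the ligand genes reached 1 FPKM. Igf1 had 6 fragments in each library and 0.215 ± 0.00367 FPKM, and Ins1, Ins2 and Igf2 were listed at 0. For Igf2, 62.8% of the exonic bases also belong to another gene on the same strand, which was itself listed at 0, and the part of this overlap in its value was not tested. Igf2r, which binds Igf2 without signalling as a kinase, had 83.6 ± 0.740 FPKM.

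Ryk, Ror1, Ror2 and Ptk7 bind Wnt proteins or take part in Wnt signalling, and Musk organizes the muscle side of the neuromuscular junction. Ryk had 78.2, 78.0 and 77.2 FPKM, a mean of 77.8 ± 0.514. Ror2 had 12.5, 13.5 and 12.4 FPKM, a mean of 12.8 ± 0.622, and Ptk7 6.29, 6.72 and 6.40, a mean of 6.47 ± 0.225. Ror1 had 1.24, 1.16 and 1.04 FPKM, a mean of 1.15 ± 0.0985, and was the lowest receptor to reach 1 FPKM in every library. Ror2 stood 11.2 ± 0.976 times above it, 3.48 on the log2 scale. This log2 ratio was 2.91 with the longest isoform, 2.38 with fragments not divided by length and 2.69 with a pseudocount of 1. Wnt5a, the ligand of Ror2, had 34.8 ± 0.773 FPKM. Musk had 0, 4 and 5 fragments in libraries 1, 2 and 3, although its ligand gene Agrn had 24.4 ± 0.714 FPKM and its coreceptor Lrp4 2.83 ± 0.433.

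Met, the receptor of hepatocyte growth factor, had 29.2, 30.0 and 29.8 FPKM, a mean of 29.7 ± 0.423. Its paralog Mst1r had 0, 1 and 1 fragments, and Met was at least 362-fold higher in each library against a floor of 3 fragments per library. The ligand genes Hgf and Mst1 had 0.122 ± 0.0528 and 0.133 ± 0.0302 FPKM, both under 1 in every library. Met was thus another receptor without transcripts of its ligand at 1 FPKM.

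In the EGF receptor family, Erbb2, which has no known soluble ligand and acts as a partner of the other members, was highest. It had 23.0, 23.9 and 23.2 FPKM, a mean of 23.4 ± 0.453. Egfr had 3.92, 4.07 and 4.04 FPKM, a mean of 4.01 ± 0.0822, and Erbb2 stood 5.83 ± 0.0710 times above it, 2.54 on the log2 scale, which became 3.72 with the longest isoform. Erbb3 had 0.841, 0.845 and 0.802 FPKM, a mean of 0.829 ± 0.0242 from 213 fragments, and Erbb4 was listed at 0, where 3 fragments over all libraries would be 0.0130 FPKM. Of 11 ligand genes, 6 reached 1 FPKM in every library. Hbegf had 53.7 ± 1.17 FPKM, Ereg 36.3 ± 0.758, Btc 6.40 ± 0.364 and Egf 1.62 ± 0.0812. These 4 encode ligands of Egfr. Nrg1, a ligand of Erbb3 and Erbb4, had 29.7 ± 0.813 and Nrg4, a ligand of Erbb4, 1.19 ± 0.196. Tgfa, Nrg2 and Nrg3 were listed at 0.

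Flt1 was the 1 VEGF receptor above 1 FPKM, with 2.76, 2.88 and 2.67 FPKM in libraries 1, 2 and 3 and a mean of 2.77 ± 0.105. Kdr, the main signalling receptor of endothelial cells, had 0, 1 and 5 fragments, and Flt4 was listed at 0. The ligand gene Vegfa had 323, 315 and 312 FPKM, a mean of 316.6 ± 5.47. Vegfb had 28.5 ± 1.55, Vegfd 10.5 ± 0.761 and Vegfc 1.68 ± 0.222, while Pgf had 0.371 ± 0.133. The coreceptors Nrp2 and Nrp1 had 40.4 ± 0.532 and 12.7 ± 0.8200. Vegfa, Vegfb and Vegfd thus stood above all 3 VEGF receptors in FPKM.

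Alk, a receptor known from the nervous system, had 1.77, 1.65 and 1.48 FPKM, a mean of 1.63 ± 0.147, and its relative Ltk had 2 fragments in each library. The ligand genes Alkal1 and Alkal2 were listed at 0, and Mdk, the highest of that list, had 0.226 ± 0.0457 FPKM. Alkal2 shares 35.1% of its exonic bases with Acp1 on the opposite strand, which had 45.2 FPKM. The part of this overlap in the value of Alkal2 was not tested. The angiopoietin receptor Tek had 0, 4 and 3 fragments and Tie1 had 1 in all, beside Angpt1 at 1.59 ± 0.133. Ntrk3 had 3 fragments and Ntrk2 none, although Bdnf, the ligand of Ntrk2, had 21.6 ± 1.18 FPKM. Ret had 2 fragments, whereas its ligand gene Gdnf had 31.0 ± 0.332 the coreceptor Gfra2 4.85 ± 0.439 and Gfra1, the preferred coreceptor of GDNF, 0.604 ± 0.0329. Ros1 was listed at 0. Each receptor of the Tie, neurotrophin, Ret and Ros1 groups was thus at 7 fragments or fewer over 3 libraries.

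**Figure D3:**
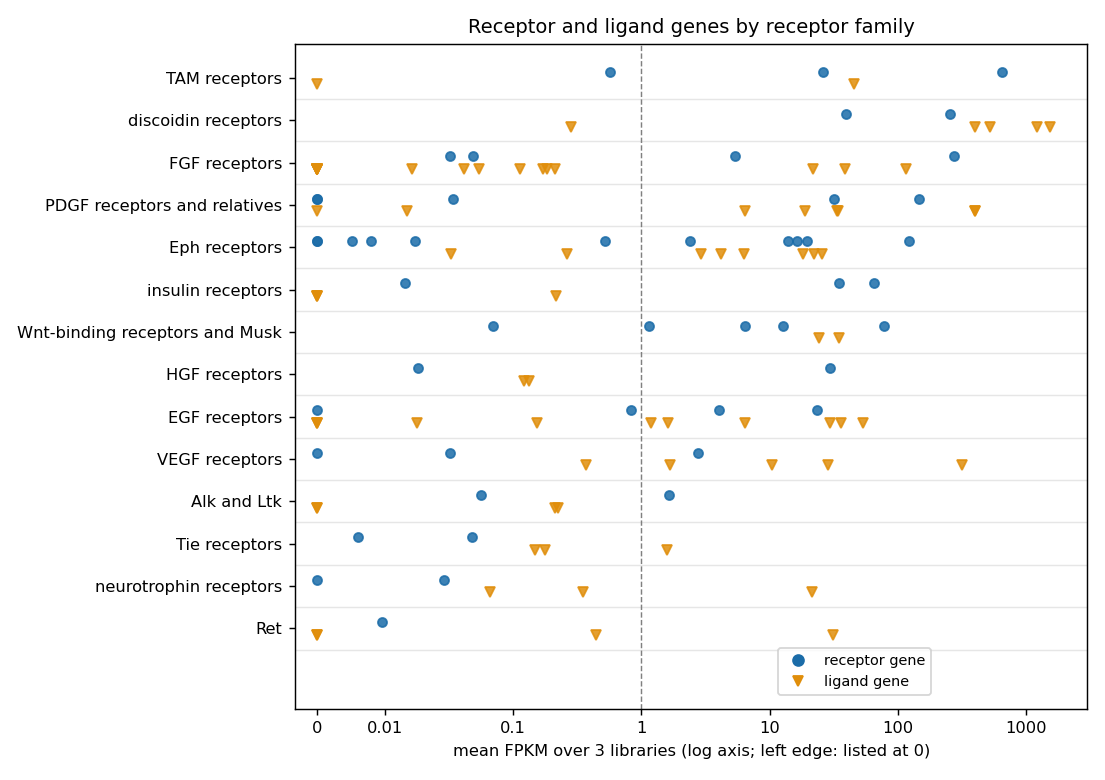
Mean FPKM over 3 libraries (log axis) of receptor genes (circles) and ligand genes (triangles) by receptor family, with values listed at 0 at the left edge and a dashed line at 1 FPKM. The insulin, HGF and Alk groups have a receptor above 1 FPKM and no ligand gene there, and the neurotrophin receptors and Ret lie below it beside Bdnf at 21.6 and Gdnf at 31.0 FPKM.

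Read by ligand class, RNA of at least 1 receptor at 10 FPKM or more was present for the ligands of TAM receptors, collagen, FGFs, PDGFs, ephrins, insulin-like growth factors and insulin, Wnt5a and hepatocyte growth factor. For the EGF class it was present as Erbb2 at that level and Egfr below it. VEGF and the Alk ligands had 1 receptor each between 1 and 10 FPKM, Flt1 and Alk. The other VEGF receptors, Kdr and Flt4, had 6 and 0 fragments over 3 libraries. Stem cell factor, CSF1, FLT3 ligand, angiopoietins, GDNF, agrin and the ligands of Ntrk2 and Ntrk3 had receptor RNA of at most 9 fragments over 3 libraries. On the ligand side, 36 of the 80 genes found reached 1 FPKM in every library and 20 were listed at 0. The same limit was passed by 48.5% of protein-coding genes, so the ligand list was also close to other protein-coding genes.

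The docking and feedback proteins that receptors share were nearly all transcribed. Of 25 adaptor genes, 23 reached 1 FPKM in every library, and of 19 genes that restrain receptor signalling, 18 did. Shc1, which links receptors to Grb2, had 88.3 ± 2.48 FPKM, the PI3-kinase subunit gene Pik3r2 87.8 ± 1.80, Crk 74.6 ± 3.25, Crkl 56.6 ± 0.228 and the phosphatase gene Ptpn11 52.2 ± 0.972. Plcg1, Frs2, Nck2, Pik3r1, Grb2, Sos2, Pik3ca, Irs2, Nck1, Pik3cb and Sos1 lay between 12.6 and 40.4 FPKM. Frs2, the docking protein of FGF receptors, was at 39.2 ± 1.104, and of the insulin receptor substrates Irs2 was at 16.0 ± 0.102 and Irs1 at 5.47 ± 0.369. Gab2, Gab1, Irs1, Pik3cd, Frs3, Shc4 and Shc2 lay between 1.098 and 9.76, and Shc3 and Plcg2 had 1 fragment per library. Among the restraining genes, Errfi1, whose product inhibits EGF receptors, was highest at 112.0 ± 1.95 FPKM. Socs3 had 83.9 ± 1.37, Lrig1 67.7 ± 3.53 and the ubiquitin ligase gene Cbl 60.9 ± 2.42. Spry2, Spred2, Spred3, Ptpn1, Spred1, Ptpn2, Lrig3, Cblb and Lrig2 lay between 15.3 and 39.0, and Socs1, Ptprj, Spry4, Spry1 and Spry3 between 1.99 and 5.66. Cblc, with 1 to 6 fragments per library, was the exception. Beside the background of 48.5% for protein-coding genes these lists were transcribed more completely than the receptors, a comparison that carries no test.

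In the FPKM order of the 24 receptors at 1 FPKM or more, the library ranges of neighbours did not overlap in 22 of 23 pairs. The exception was Ephb3 and Ror2, where Ephb3 ranged from 13.1 to 14.7 and Ror2 from 12.4 to 13.5 FPKM. This count covers only the spread between libraries, which may be technical, and the same count over all genes was not computed. The order itself depends on gene length. Fragments scaled to the library totals but not divided by length put Ddr2, at a mean of 921.2, above Fgfr1 at 618.4. They also put Igf1r at 219.7 above Epha2 at 181.7. The CV of the 24 receptors over the libraries ran from 0.633% for Ddr2 to 9.35% for Epha4, with a median of 2.32%. The median was 4.14% over all genes with at least 1 FPKM in every library, which were not matched to the receptors for fragments per gene. The CV over the libraries exceeded the CV from counting alone in 9 of 24 receptors, and the same share over all genes was not computed. A chi-square test of the fragments against the library totals, which compares these libraries and not conditions, called 0 of the 27 receptors that could be tested after Benjamini-Hochberg adjustment. The same test called 1.84% of the 15142 genes tested. At an unadjusted p under 0.05 the chi-square test picked 1 receptor, Fgfr1 (p = 0.00737, adjusted p = 0.233), beside 9.09% of all genes tested. Fgfr1 was highest in library 1 and lowest in library 3.

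**Figure D4:**
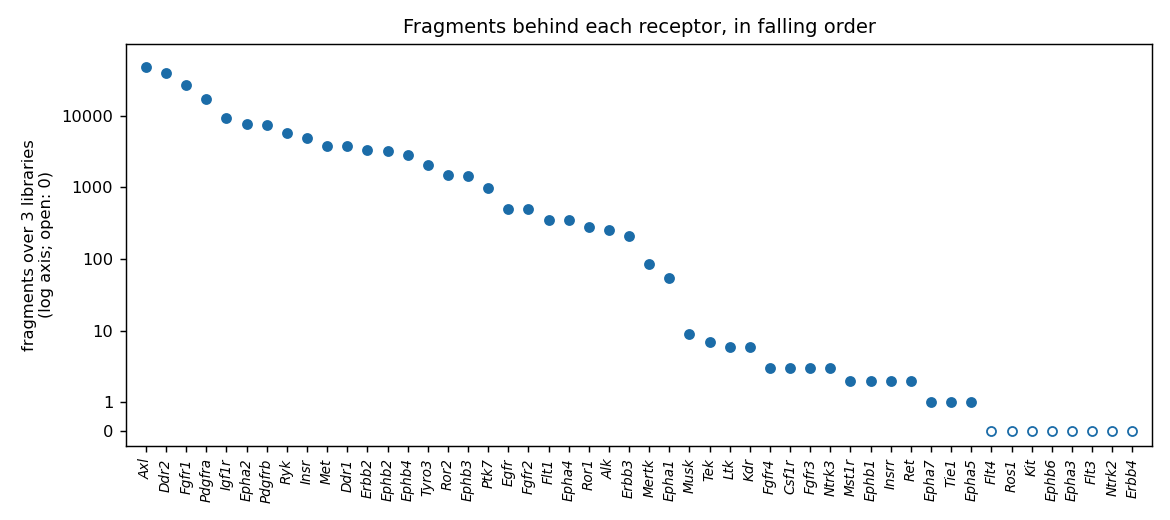
Fragments summed over 3 libraries (log axis) for each of the 50 receptors in falling order, with open symbols for 0. A gap separates Epha1 at 54 fragments from Musk at 9, and Axl lies highest at 47011.

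For each of the 9 log2 ratios between related receptors, a two-sided exact permutation test that flips signs gave p = 0.25, and 0.25 after Benjamini-Hochberg adjustment over the 9. With 3 libraries no smaller p can be reached, and so none of the ratios could pass 0.05. The direction of each ratio was the same in 3 of 3 libraries.

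The length behind each FPKM moved most of these levels by more than their SD over the libraries. The deposited FPKM correspond to the mean length of a gene's annotated isoforms, short ones included. Among the 24 receptors the longest isoform was 1 to 3.45 times that length, with a median of 2.15. Divided by the longest isoform, Axl was at 258.2 ± 2.18, Fgfr1 at 122.7 ± 2.88, Ddr2 at 107.2 ± 0.679, Pdgfra at 58.9 ± 0.827, Epha2 at 46.4 ± 0.514 and Ryk at 43.2 ± 0.285 fragments per kilobase per 1000000, and these 6 kept their order. Pdgfrb, at 31.6 under both lengths, moved from place 10 to place 7, and Insr from 9 to 13 at 12.1 ± 0.124. Egfr fell to 1.16 ± 0.0238 and Igf1r to 19.3 ± 0.347. The number of receptors at 1 or more in every library became 23. Of the receptors at 10 FPKM or more, Ror2, Ephb3 and Ephb2 fell below 10, to 8.62, 7.06 and 6.98.

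**Figure D5:**
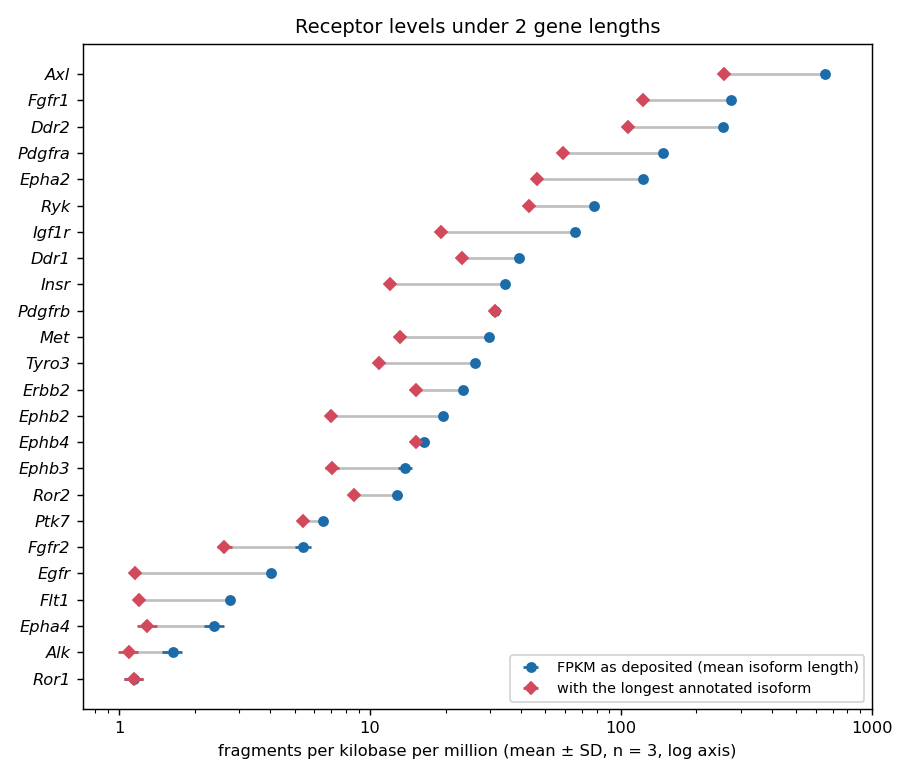
Fragments per kilobase per 1000000 (mean ± SD over 3 libraries, log axis) of the 24 receptors at 1 FPKM or more, with the mean isoform length of the deposited FPKM (circles) and with the longest annotated isoform (diamonds). Axl moves from 650.0 to 258.2, Egfr from 4.01 to 1.16, and Pdgfrb and Ror1 stay in place.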

How the data were processed

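UMI-RNAseq was measured in 3 NIH3T3 libraries of 1 condition, grouped by the labels. Per the study's methods, 150 nt paired-end reads were assigned UMIs, mapped, freed of reads with the same location and UMI, and counted per gene, and the authors deposited FPKM values per library. The submitters' processing notes name UMI-tools 1.0.0, HISAT2 2.0.4, HTSeq 0.6.1 and DESeq 1.10.1. The genome build, annotation and strand setting of the counting are not given in the sources used here. Of the columns of per-sample values, 0 were left without a match to a library, and the FPKM used were those listed with gene names.

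Since FPKM are normalized values, no count model was fitted to them, and no pseudocount was added in the main values. The Poisson limits and the chi-square test used recovered fragments instead. Fragments were recovered with Python 3.11.15, numpy 2.4.6, pandas 2.3.3 and scipy 1.17.1 from mean isoform lengths of GENCODE M21 on GRCm38, whole within a relative tolerance of 1e-06 in 99.2% of 26178 genes. The recovery and the chi-square test were tested on simulated data. Poisson limits (exact, 95%) and floors of 3 fragments cover counting error only. The chi-square test used genes with an expected count of at least 5 in each library and an adjusted p under 0.05. The receptors and the lists of ligands, coreceptors, adaptors, regulators and markers were chosen with earlier results of these data known. All receptors were named, in full from a mean of 1 FPKM upward, and of the other lists the genes with a mean of at least 1 FPKM and the highest of each family; of the markers, the highest and lowest. One listed ligand symbol, Figf, is an older name of Vegfd and was read under the latter. The planned reading of catalytic motifs from proteins was replaced by aligned coding bases of GENCODE transcripts. One ligand gene of the list is counted but not reported or drawn here. Coding bases on chromosome 18 (Pdgfrb, Csf1r) are not reported. Sequence shared with other genes was counted in 75-nt words, which made up over 1% of the words of Csf1r, Fgfr3, Pdgfra, Ddr1, Epha1, Fgfr2 and Ephb1. Figures were drawn with matplotlib 3.10.9.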

Additional observations from a re-analysis of the deposited data

How the results depend on the processing

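Rescaling each library to 1000000 summed FPKM raised the levels, for example of Axl to 941.9, of Pdgfrb to 45.9 and of Ror1 to 1.66, and left the family shares as they were. The share of the TAM receptors in the summed level was 33.0% with the longest annotated isoform and 25.8% with fragments not divided by length. The number of ligand genes was 56 when the limit was any FPKM above 0 in all 3 libraries. The number of receptors at the limit lay between 22 with a limit of 2 FPKM and 29 with any value above 0. All 63 recomputed log2 ratios kept their direction, although with the longest isoform that of Erbb2 to Egfr was 3.72 and that of Epha2 to Ephb4 1.61. No receptor was called different between libraries under any alternative of the chi-square test, each with 26 or 27 receptors tested. Receptors with at most 9 fragments are limited by depth, and no order among them was read. No paired analysis was possible because all libraries belong to 1 group.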
